A study of Homo sapiens with 4 samples.

Results

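The matrix metalloproteinases (MMPs), the ADAM and ADAMTS proteases and the tissue inhibitors of metalloproteinases (TIMPs) were read in HCT116, an established colon cancer cell line, by every probe whose gene name begins with ADAM, ADAMTS, MMP or TIMP and a number. This choice rested on the names alone and gave 100 of the 41000 probes, for 67 genes: 31 probes for 21 ADAM genes, 33 for 19 ADAMTS genes, 30 for 23 MMP genes and 6 for the 4 TIMP genes. In this series 2 clones of HCT116 that stably carry an shRNA against N-BLR, a long noncoding RNA, were each compared with an HCT116 clone carrying the empty vector. Clone #3-1 and clone #4-7 had 2 Agilent arrays with both dyes each, labelled as biological replicates, and all 4 arrays were on 1 slide. Every line is a single clone, so an effect of the shRNA and a difference between clones cannot be told apart. The labels speak of lentiviral transduction and the methods of transfection with selection, and no agent other than the vector distinguishes the groups.

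MMPs are secreted or membrane-bound zinc endopeptidases that cut collagens, gelatin, laminin and other matrix proteins, and they are made as inactive precursors. ADAMs are membrane-anchored relatives that shed the extracellular part of growth factors, cytokines and adhesion molecules, and ADAMTS enzymes are secreted relatives that process procollagen, proteoglycans and von Willebrand factor. TIMPs bind the active site of MMPs and of some ADAMs. In colon tumours much of the MMP activity comes from stromal cells, whereas MMP7 is typically made by the tumour epithelium. The comparison asks which of these genes differ in clones that the study selected for reduced N-BLR and examined for invasion and migration.

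By the labels, the red dye Cy5 marked shRNA clone RNA and the green dye Cy3 the common empty vector RNA on every array, without a dye swap. The signals go against that assignment. Over the 26882 probes well above background in both channels on all arrays (the scanner software's flag), Cy5 intensities correlated at r = 0.996 to 0.999 between arrays of different clones, whereas Cy3 intensities correlated at r = 0.979 to 0.983 between clones and at 0.998 to 0.999 within a clone. The median size of the difference between the clones' arrays was 0.057 on the log2 scale in Cy5 and 0.22 in Cy3. With limma at p under 0.001, 0.0927% of all probes differed between the clones' arrays in Cy5 alone and 18.4% in Cy3 alone. Thus the channel that was nearly alike on all arrays was Cy5, and the channel that followed the clone was Cy3. CDH1 (E-cadherin) was lower in Cy5, with a log2 ratio of -2.60 in clone #3-1 and -1.35 in clone #4-7, and the brighter probe of VIM (vimentin) was higher, at 4.45 and 2.38. Read by the labels, this is the opposite of the direction that the study describes for E-cadherin and vimentin in these clones. Which RNA each dye carried was not tested, so all directions below are stated by dye, as Cy5 over Cy3. If the labels hold, lower in Cy5 means lower in the shRNA clone; with the sign turned, it means higher in the shRNA clone. Sizes, counts and tests are the same either way.

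By the labels all arrays share 1 control RNA, so a ratio tested against 0 does not include how a control varies, and the clones are given side by side. Tests are limma's moderated test over all 41000 probes, and a probe is called, or past the threshold, at an unadjusted p under 0.001. The threshold is that of the study's methods, which do not say whether it was adjusted. Each p printed is Benjamini-Hochberg adjusted over all probes; the calls reach up to an adjusted p of 0.0031 in clone #3-1, 0.0032 in clone #4-7 and 0.0044 for the difference between the clones. The error after ± is the SD of the 2 arrays. The colon epithelial genes CDH1, TACSTD1 (EPCAM), KRT8, KRT18, KRT19, KRT20 and CDX2 were measured, with 11 of 14 probes of that list above background in both channels on all arrays, and CDX1 and VIL1 were not above background. This list moved toward lower Cy5 in both clones: 7 of its 14 probes were lower in clone #3-1 and 7 in clone #4-7 (16.4% and 15% of all probes), with a median ratio of -0.29 and -0.37 over the measured ones. TACSTD1 had a mean of -1.04 and -0.44, the KRT8 probe A_23_P14072 had -0.69 and -0.90, and KRT19 was lower in clone #3-1 (-0.80) and higher in clone #4-7 (0.36). Whether these shifts have a part in the protease results was not tested. Of 18 probes for fibroblast, endothelial and leukocyte genes 5 were measured, and PTPRC, PECAM1, CDH5, COL1A2, COL3A1 and LUM were not above background on any array.

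Fewer of these protease probes were detected than of the array as a whole. Of the 100 probes, 42 were well above background in both channels on all 4 arrays, 14 in part and 44 in no channel on any array; over all probes 65.6% were measured and 24.1% were in no channel. The measured share was 17 of 31 probes for ADAM, 14 of 30 for MMP, 9 of 33 for ADAMTS and 2 of 6 for TIMP. By gene, 29 of 67 had at least 1 measured probe and 27 had none above background. MMP2 (gelatinase A), MMP3 and MMP10 (stromelysins), MMP8 and MMP13 (collagenases), MMP12 (macrophage elastase), ADAM12 and ADAMTS1 were among those not well above background in either channel. The 10 MMP2 spots of each array were below background apart from 1 spot in each channel on 1 array.

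**Figure D1:**
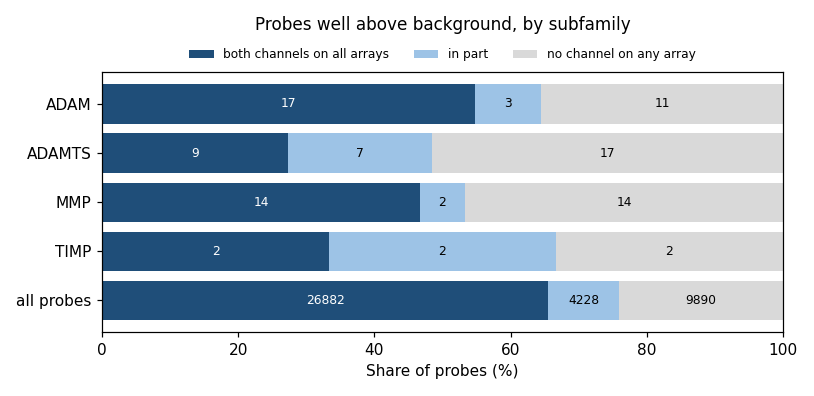
Share of probes (horizontal axis, %) of each subfamily and of all probes on the array that the scanner software called well above background in both channels on all 4 arrays, in part, or in no channel on any array. Numbers in the bars are probes: 42 of the 100 protease and inhibitor probes were measured throughout and 44 were in no channel.

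Most of the calls among these probes were lower in Cy5. In clone #3-1, 23 of the 100 probes were lower in Cy5 (16.4% of all probes) and 6 were higher (16.2% of all probes). The 23 include ADAM18 (-0.23, adjusted p = 0.0019), which had no channel above background on any array, so that call sets background against background. In clone #4-7, 11 were lower (15% of all probes) and 6 were higher (16% of all probes). Among the 42 measured probes, 18 were lower in clone #3-1 (42.9%, against 23.8% of all measured probes) and 4 were higher (against 24%). In clone #4-7, 10 of the 42 were lower (23.8%, against 21.9%) and 4 were higher (against 23.5%). The lower calls in clone #3-1 thus lay above the background share, the lower calls in clone #4-7 near it, and the higher calls below it in both. The median ratio of the 42 probes was -0.21 in clone #3-1 and -0.05 in clone #4-7, while the median over all measured probes was 0.01 and 0.02. The counts depended on how the background was corrected: with no offset 14 probes were lower in clone #3-1 and 7 in clone #4-7. The share of all probes is not given with no offset. Whether the lower calls in clone #3-1 lie above it there is therefore not shown.

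By subfamily, the ADAMTS and MMP calls were all on the lower side. In clone #3-1, 6 of 9 measured ADAMTS probes (66.7%) and 7 of 14 measured MMP probes (50%) were lower in Cy5, against 23.8% of all measured probes. These ADAMTS probes are those of ADAMTS2, ADAMTS13, ADAMTS10 and ADAMTS7 only. With limma at p under 0.001 none of the 33 ADAMTS or 30 MMP probes was higher, against 16.2% of all probes. At an unadjusted p under 0.05, 5 and 2 were higher, and at an adjusted p under 0.05, 4 and 2. No share over all probes is given at these looser thresholds, so the counts there cannot be set against the array. In clone #4-7, 4 of 9 ADAMTS (44.4%) and 3 of 14 MMP probes (21.4%) were lower, against 21.9% of all measured probes, so the MMP share was near it. None was higher with limma at p under 0.001 (16% of all probes), against 2 and 1 at both of these looser thresholds. The ADAM probes split, with 3 of 17 measured probes higher (17.6%) and 4 lower (23.5%) in clone #3-1, against 24% and 23.8% of all measured probes. In clone #4-7, 4 were higher (23.5%) and 3 lower (17.6%), against 23.5% and 21.9%. The ADAM shares thus lay near or below those of all measured probes. Of the 42 measured probes 8 reached 1.5-fold in clone #3-1 (19%, against 12.1% of all measured probes) and 9 in clone #4-7 (21.4%, against 10.8%). A ratio of 2-fold was reached by 3 probes in clone #3-1 (7.14%, against 3.03%) and by 1 in clone #4-7 (2.38%, against 2.46%).

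**Figure D2:**
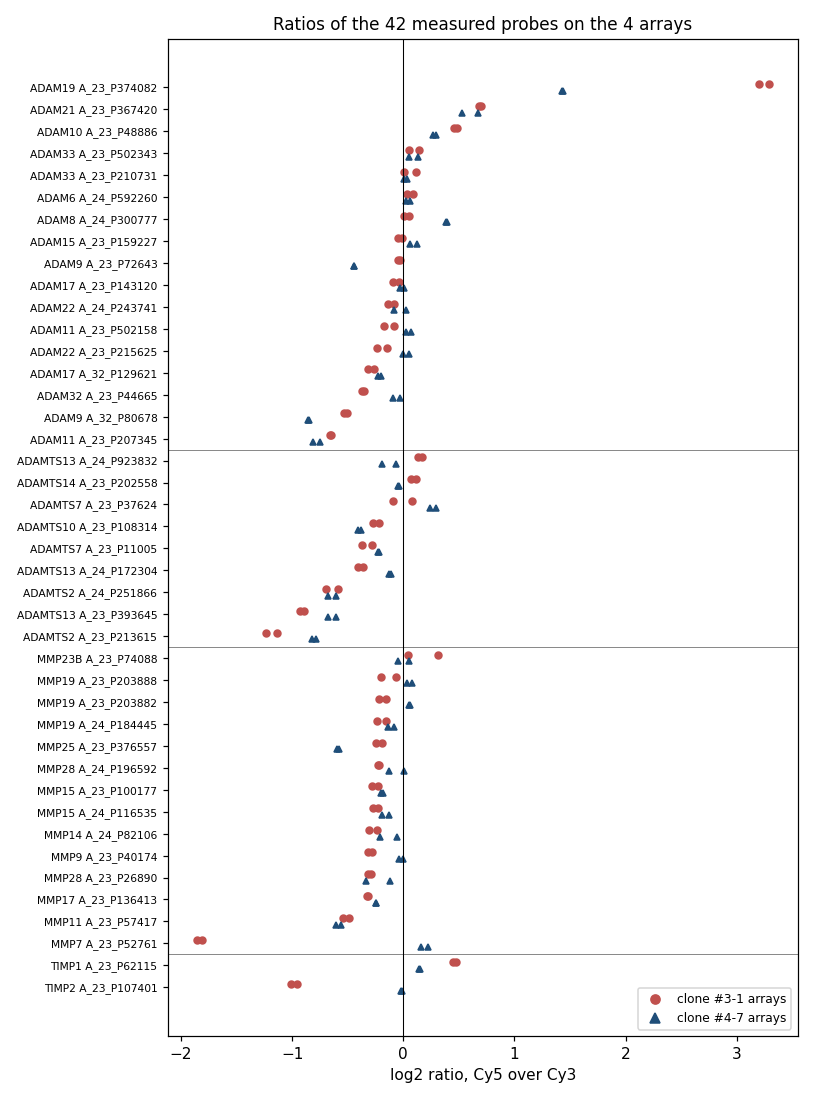
Log2 ratio of Cy5 over Cy3 (horizontal axis) on each of the 4 arrays for the 42 probes well above background in both channels on all arrays, grouped by subfamily and ordered by the mean of the clone #3-1 arrays (circles); clone #4-7 arrays are triangles. ADAM19 (3.24 and 1.44) and MMP7 (-1.84 and 0.19) lie farthest from the other probes of their subfamilies.

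ADAM19, which encodes a sheddase of neuregulin and other membrane proteins, had the largest ratio. The probe A_23_P374082 (hg17 chr5:156837053-156837112, minus strand) read 3.29 and 3.20 on the clone #3-1 arrays and 1.43 and 1.44 on the clone #4-7 arrays, so that no array of one clone reached the other. The means were 3.24 ± 0.06 (n = 2; 9.46-fold, adjusted p = 5.8e-06) and 1.44 ± 0.00 (n = 2; 2.71-fold, adjusted p = 1.9e-05), both higher in Cy5, and the clones differed by 1.81 (SE 0.05, adjusted p = 4.6e-05). Its log2 intensity in Cy5 was 14.65, 14.49, 14.49 and 14.48 over the arrays, and in Cy3 it was 11.37 and 11.29 for clone #3-1 and 13.06 and 13.04 for clone #4-7. Nearly all of the difference between the clones was therefore read in Cy3. A second probe, A_23_P81369, spans an exon junction (hg17 chr5:156848719-156849901), with ratios of 1.62 and 1.57 in clone #3-1 and 1.05 and 1.17 in clone #4-7. Both were higher in Cy5 (adjusted p = 1.7e-05 and 4.1e-05), but Cy3 was well above background on 3 of 4 arrays only, and the probe is dimmer than the first. Its difference between the clones, 0.49, passed the threshold (adjusted p = 0.002). It did not pass when clone #3-1 replicate 1, clone #3-1 replicate 2 or clone #4-7 replicate 1 was left out, at sizes of 0.43 to 0.52.

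The region before the ADAM19 start is shown because this gene had the largest ratio. The 250 bases are from RefSeq (GRCh38.p14 chr5:157575776-157576025, minus strand, printed on the gene's strand). Capitals mark a match to an E-box that ZEB1 can bind (CAGGTG or CACCTG), which begins 184 bases before the start. The motif was also found in 17.5% of 35116 promoters, and in 8 of the 39 given for these genes. A part of ZEB1 in the ADAM19 ratio was not tested.
ADAM19: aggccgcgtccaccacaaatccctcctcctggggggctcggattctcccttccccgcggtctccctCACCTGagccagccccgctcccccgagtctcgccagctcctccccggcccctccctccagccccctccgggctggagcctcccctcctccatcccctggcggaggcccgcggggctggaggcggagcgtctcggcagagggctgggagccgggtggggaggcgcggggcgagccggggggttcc

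The other ADAM calls were smaller. ADAM10, the main sheddase of Notch and E-cadherin, read 0.46 and 0.48 in clone #3-1 (adjusted p = 0.00013) and 0.27 and 0.29 in clone #4-7 (adjusted p = 0.00079), higher in Cy5. The clone #4-7 call did not pass without either of its arrays, at ratios of 0.27 to 0.29. ADAM21, a testis-associated member, was higher at 0.68 and 0.70 in clone #3-1 (adjusted p = 0.00013) and 0.67 and 0.53 in clone #4-7 (adjusted p = 0.00021). Neither gene differed between the clones at the threshold (ADAM10 0.19, adjusted p = 0.015; ADAM21 0.09, adjusted p = 0.3). ADAM8, a leukocyte-associated sheddase, read 0.01 and 0.05 in clone #3-1 and 0.38 and 0.39 in clone #4-7. It was called in clone #4-7 (adjusted p = 0.00028), though not without its replicate 2, at a ratio of 0.38. ADAM8 was also called between the clones (-0.36, adjusted p = 0.0018), although that difference did not pass with any 1 array left out, at sizes of -0.38 to -0.34.

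ADAM9, a sheddase with a disintegrin domain, and ADAM11, a relative without protease activity that is known from the brain, were lower in Cy5. For ADAM9, probe A_32_P80678 read -0.51 and -0.53 in clone #3-1 (adjusted p = 9e-05) and -0.85 and -0.86 in clone #4-7 (adjusted p = 3.4e-05). Probe A_23_P72643 read -0.05 and -0.03 in clone #3-1, short of the threshold (adjusted p = 0.27), and -0.44 on both arrays of clone #4-7 (adjusted p = 0.00016). The probes of ADAM9 thus disagree on clone #3-1, while both gave a clone difference of similar size, 0.34 and 0.40 (adjusted p = 0.0019 and 0.0011). Neither difference passed with any 1 array left out, although the sizes stayed at 0.33 to 0.35 and 0.39 to 0.40. For ADAM11, probe A_23_P207345 read -0.66 and -0.65 in clone #3-1 (adjusted p = 6e-05) and -0.81 and -0.75 in clone #4-7 (adjusted p = 4.7e-05), whereas probe A_23_P502158 lay between -0.17 and 0.07 on the 4 arrays and was not called. A gene-level direction for ADAM11 therefore rests on 1 of its 2 probes.

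ADAM17, the sheddase of TNF and of several EGFR ligands, and ADAM15, which cuts E-cadherin and collagen, stayed close to 0. The ADAM17 probe A_23_P143120 lay between -0.09 and 0.01 on all arrays. The probe A_32_P129621 read -0.26 and -0.32 in clone #3-1 (adjusted p = 0.00097, not past the threshold without either of its arrays) and -0.20 and -0.23 in clone #4-7 (adjusted p = 0.0034). ADAM15 read -0.05, -0.01, 0.12 and 0.06 and was not called. ADAM32, a testis-associated member, was lower in clone #3-1 at -0.35 and -0.37 (adjusted p = 0.00037, not past the threshold without its replicate 2) and read -0.03 and -0.09 in clone #4-7 (adjusted p = 0.16). Its difference of -0.30 (adjusted p = 0.0038) did not pass with any 1 array left out, at sizes of -0.33 to -0.27. ADAM7 was well above background in Cy5 alone, which gives a bound of at least 1.22-fold in clone #3-1 (adjusted p = 0.00069) and 1.18-fold in clone #4-7 (adjusted p = 0.00058). Each call was lost without either array of its clone, at ratios of 0.28 to 0.30 and 0.29 to 0.33. ADAM20 was above background in Cy3 alone in clone #3-1. Its ratios there, -0.01 and -0.06, were not told apart from 0 (adjusted p = 0.64), so no bound is given.

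Among the ADAMTS genes, ADAMTS2, the procollagen N-proteinase, had the largest ratios. Probe A_23_P213615 (hg17 chr5:178473841-178473900, minus strand) read -1.14 and -1.24 in clone #3-1 (2.28-fold, adjusted p = 2.3e-05) and -0.79 and -0.82 in clone #4-7 (1.75-fold, adjusted p = 6.7e-05). Probe A_24_P251866 gave -0.59 and -0.70 (adjusted p = 0.00014) and -0.68 and -0.61 (adjusted p = 0.00015). Both of these probes were lower in Cy5 in either clone, but the first differed between the clones (-0.39, adjusted p = 0.0031) and the second did not (0.00, SE 0.06, adjusted p = 0.98). The first probe's difference did not pass without clone #3-1 replicate 2, clone #4-7 replicate 1 or clone #4-7 replicate 2, at sizes of -0.40 to -0.33. Another probe, A_23_P321307, was above background in Cy3 alone. Its mean ratio was -0.24 in either clone and was called in neither (adjusted p = 0.018 and 0.019), so no bound is given.

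ADAMTS13, which cleaves von Willebrand factor, gave a different answer with each of its 3 measured probes. A_23_P393645 read -0.93 and -0.89 in clone #3-1 (adjusted p = 3.1e-05) and -0.61 and -0.68 in clone #4-7 (adjusted p = 8.4e-05). A_24_P172304 was lower in clone #3-1 at -0.41 and -0.36 (adjusted p = 0.00027) and read -0.11 and -0.13 in clone #4-7 (adjusted p = 0.021). A_24_P923832 read 0.17 and 0.13, then -0.07 and -0.19, with no call. The probes lie at different places along the gene (hg17 chr9:133353953-133354012, 133344532-133344591 and 133337090-133337149), and in clone #3-1 the ratio was lower the nearer the probe lay to the 3′ end. ADAMTS10 was lower in both clones, at -0.24 (adjusted p = 0.0014) and -0.39 (adjusted p = 0.00028). Of 2 measured ADAMTS7 probes 1, A_23_P11005, was lower in clone #3-1 (-0.33, adjusted p = 0.00078). Its log2 intensity was 16.77 to 17.16 over channels and arrays, against 7.46 to 7.78 for the other, A_23_P37624. That other probe was not called, with means of -0.01 in clone #3-1 and 0.27 in clone #4-7. A direction for ADAMTS7 therefore rests on 1 probe whose brightness is far from that of the other.

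The aggrecanases were at the edge of detection. ADAMTS4 probe A_23_P360754 was above background in Cy5 on 4 arrays and in Cy3 on 3, and read 0.21, 0.13, -0.11 and -0.18 (adjusted p = 0.011 and 0.022); its other probe was not above background. ADAMTS5 was above background on 1 array in each channel and lay between 0 and 0.11. ADAMTS1 had no probe above background, with ratios between -0.25 and 0.09 over both probes. ADAMTS16 was above background only in Cy3 of the clone #3-1 arrays, which bounds the ratio there at 1.34-fold or more toward Cy3 (adjusted p = 0.00075). Neither channel was above background on the clone #4-7 arrays, so no size is given for the difference between the clones. ADAMTS15 was above background in Cy5 alone over the clone #4-7 arrays. Its ratios there, 0.05 and 0.21, were not called (adjusted p = 0.09), so no bound is given.

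MMP7 (matrilysin), a small MMP that cuts E-cadherin, FAS ligand and proteoglycans, differed most between the clones. Its only probe, A_23_P52761 (hg17 chr11:101899239-101899298, minus strand), read -1.86 and -1.81 on the clone #3-1 arrays and 0.16 and 0.22 on the clone #4-7 arrays. The clones lay on opposite sides of 0, and no array of one reached the other. The mean was -1.84 ± 0.04 in clone #3-1 (n = 2; 3.57-fold, adjusted p = 1e-05) and 0.19 ± 0.04 in clone #4-7 (n = 2, adjusted p = 0.0056, short of the threshold). The difference of -2.02 (4.07-fold, SE 0.05, adjusted p = 3.3e-05) passed under every alternative processing of the ratio of both channels and on Cy3 alone. On Cy5 alone it was 0.14 and short of the threshold. Only 0.0927% of all probes passed in that channel, so it could hardly show a difference. In Cy5 the log2 intensity was 7.63, 7.66, 7.50 and 7.51 over the arrays, and in Cy3 it was 9.50 and 9.47 for clone #3-1 and 7.34 and 7.29 for clone #4-7. The Cy3 signal of the clone #3-1 arrays thus stood above the other readings, which lay close together.

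The 60 bases of the MMP7 probe are shown because the reading rests on this sequence alone, and they lie in the coding part that holds the zinc site of the enzyme. The promoter is shown for the same gene (RefSeq, GRCh38.p14 chr11:102530748-102530997, minus strand, printed on the gene's strand). Capitals mark an AP-1 motif (TGAGTCA or TGACTCA), 67 bases before the start, and a TATA box (TATAAA), 30 bases before it.
MMP7 probe A_23_P52761: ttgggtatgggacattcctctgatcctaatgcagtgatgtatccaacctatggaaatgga
MMP7 promoter: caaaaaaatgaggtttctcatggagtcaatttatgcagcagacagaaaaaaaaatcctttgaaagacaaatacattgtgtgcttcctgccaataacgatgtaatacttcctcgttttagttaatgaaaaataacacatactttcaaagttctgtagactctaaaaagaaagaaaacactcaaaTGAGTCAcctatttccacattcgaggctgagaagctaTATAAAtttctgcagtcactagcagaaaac
RefSeq promoters were given for 39 of the 67 genes. MMP1, MMP2, MMP3, MMP9, MMP12, MMP13 and TIMP2 are among the genes without one, so no motif was sought there. The AP-1 motif was in 1 of these 39, MMP7, and in 4.2% of 35116 promoters of the same length, searched on both strands. The E-box was in 8 of the 39 (20.5%) and in 17.5% of all, and the TATA box, searched on the gene's strand, was in 6 of the 39 (15.4%) and in 6.8% of all.

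MMP1 (interstitial collagenase), which opens fibrillar collagen, was read by 10 spots of 1 probe, A_23_P1691 (hg17 chr11:102165907-102165966, minus strand). The means over the spots were -0.79 and -0.74 in clone #3-1 and 0.05 and 0.10 in clone #4-7, with an SD among spots between 0.07 and 0.23. Cy3 was above background at all 10 spots on each clone #3-1 array and at none on the clone #4-7 arrays, and Cy5 was above it at no more than 3 spots on any array. For clone #3-1 the ratio is therefore a bound, at least 1.7-fold toward Cy3 (adjusted p = 4.9e-05). The clone #4-7 ratio sets background against background, so no size is given for the difference between the clones. The other MMP1 probe, A_32_P429083, reads the opposite strand to the first, lies outside its position, and was not above background.

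MMP9 (gelatinase B), also with 10 spots, was above background throughout and moved less. It read -0.32 and -0.28 in clone #3-1 (adjusted p = 0.00067, not past the threshold without either of its arrays) and -0.04 and 0.00 in clone #4-7 (adjusted p = 0.55), a difference of -0.28 that missed the threshold (adjusted p = 0.0048). MMP14, the membrane-type enzyme that activates MMP2, read -0.31, -0.24, -0.21 and -0.06, with no call (adjusted p = 0.005 and 0.064). MMP11 (stromelysin 3) was lower in Cy5 in clone #3-1 (-0.54 and -0.49, adjusted p = 0.00014) and in clone #4-7 (-0.61 and -0.56, adjusted p = 0.00011), and the clones did not differ at the threshold (0.07, adjusted p = 0.27).

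MMP25, a membrane-anchored enzyme known from leukocytes, was the only MMP with a called clone difference of the other sign. It read -0.19 and -0.25 in clone #3-1 (adjusted p = 0.0023) and -0.60 and -0.58 in clone #4-7 (adjusted p = 9.4e-05), a difference of 0.37 (adjusted p = 0.002). Neither the clone #3-1 call nor the difference passed with any 1 array left out, at sizes of -0.25 to -0.19 and 0.34 to 0.40. MMP17 and MMP15, also membrane-type enzymes, had lower calls at small sizes. MMP17 read -0.33 and -0.32 (adjusted p = 4e-04) in clone #3-1 and -0.25 on both clone #4-7 arrays (adjusted p = 0.001), and both MMP15 probes had a mean of -0.25 in clone #3-1 (adjusted p = 0.0012 and 0.0018), with -0.19 and -0.16 in clone #4-7 (adjusted p = 0.0039 and 0.0098). All 3 MMP19 probes lay between -0.24 and 0.08 and were not called.

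Of the inhibitors, TIMP2, which both inhibits MMP2 and takes part in its activation, differed most between the clones. The bright probe A_23_P107401 (hg17 chr17:74363249-74363308, minus strand) read -0.96 and -1.01 in clone #3-1 and -0.02 and -0.01 in clone #4-7. The mean was -0.98 ± 0.03 in clone #3-1 (n = 2; 1.98-fold lower in Cy5, adjusted p = 2.1e-05), and the value in clone #4-7 was within the error of 0 (adjusted p = 0.77). The clones differed by -0.97 (SE 0.04, adjusted p = 0.00011), which passed under every alternative processing of the ratio of both channels and on Cy3 alone. On Cy5 alone the difference was 0.02 and short of the threshold, in the channel where only 0.0927% of all probes passed. The log2 intensity in Cy5 was 13.80, 13.67, 13.70 and 13.73, and in Cy3 it was 14.76 and 14.68 for clone #3-1 and 13.72 and 13.74 for clone #4-7. A dim probe at another position, A_24_P169896, read -0.68 and -0.54 in clone #3-1 and 0.00 and -0.06 in clone #4-7, a difference of -0.58 (adjusted p = 0.0013). That difference did not pass without either clone #4-7 array, at sizes of -0.61 to -0.55.

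TIMP1, which inhibits secreted MMPs and is also known as a growth factor, went the other way. Its probe A_23_P62115 (hg17 chrX:47200920-47200979) read 0.45 and 0.47 in clone #3-1 (adjusted p = 0.00013) and 0.14 and 0.15 in clone #4-7 (adjusted p = 0.0095). The Cy5 log2 intensity lay between 14.52 and 14.54 on all arrays, while Cy3 was 14.07 on both clone #3-1 arrays and 14.39 and 14.38 on the clone #4-7 arrays. The difference of 0.32 (adjusted p = 0.0022) did not pass with any 1 array left out, although its size stayed at 0.31 to 0.33. In clone #3-1 the ratios of the 2 measured inhibitors therefore lay on opposite sides of 0. TIMP3, the inhibitor that stays bound to the matrix, was dim. Probe A_23_P399078 (hg17 chr22:31583094-31583153) was above background in Cy3 on 4 arrays and in Cy5 on 1, and it read -0.62 and -0.85 in clone #3-1 (adjusted p = 0.00065) and -1.32 and -1.13 in clone #4-7 (adjusted p = 0.00013), where the bound is at least 2.24-fold toward Cy3 (adjusted p = 0.00013). The clones did not differ at the threshold (0.49, adjusted p = 0.015). The other TIMP3 probe reads the opposite strand and was not above background, nor was TIMP4.

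The probe of TIMP1, which lies in its coding sequence, and the 250 bases before TIMP1 (RefSeq, GRCh38.p14 chrX:47582186-47582435, plus strand) and TIMP3 (chr22:32801455-32801704, plus strand) are shown because these inhibitors had ratios of opposite sign. None of the 3 motifs was found in either window, so no letters are in capitals.
TIMP1 probe A_23_P62115: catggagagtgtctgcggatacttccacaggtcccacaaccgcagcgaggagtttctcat
TIMP1 promoter: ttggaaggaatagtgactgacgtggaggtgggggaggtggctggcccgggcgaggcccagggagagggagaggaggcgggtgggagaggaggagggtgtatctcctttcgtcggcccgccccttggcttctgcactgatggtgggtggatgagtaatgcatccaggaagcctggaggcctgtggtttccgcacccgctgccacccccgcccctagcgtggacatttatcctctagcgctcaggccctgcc
TIMP3 promoter: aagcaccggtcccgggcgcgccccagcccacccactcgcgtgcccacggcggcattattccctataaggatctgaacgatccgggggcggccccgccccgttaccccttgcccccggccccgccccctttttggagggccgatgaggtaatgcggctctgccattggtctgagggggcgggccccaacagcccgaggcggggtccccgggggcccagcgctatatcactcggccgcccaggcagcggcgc

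**Figure D3:**
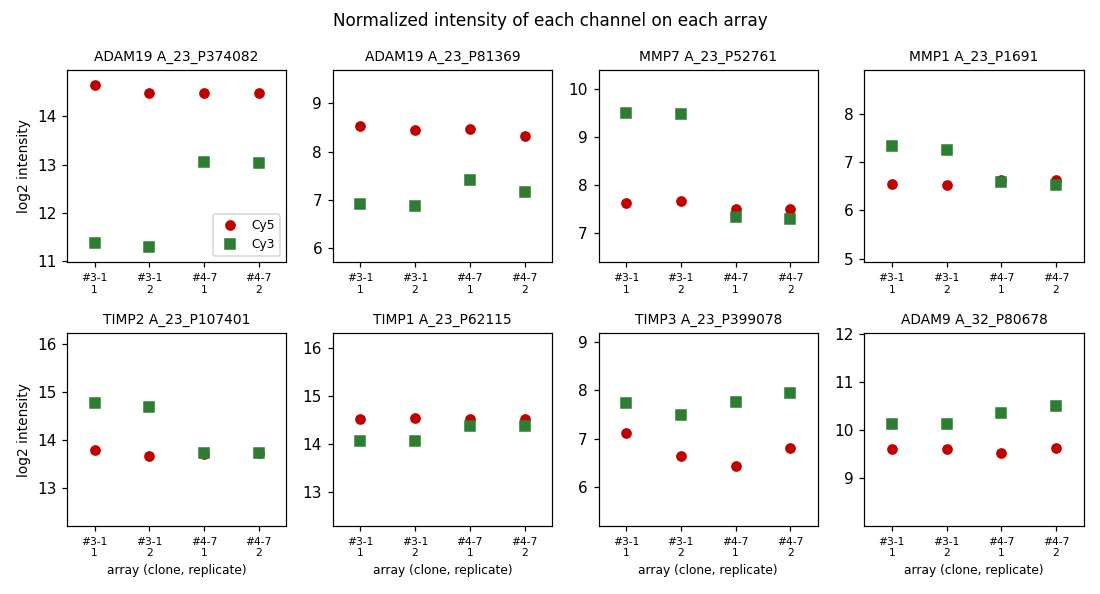
Normalized log2 intensity (vertical axis) of Cy5 (circles) and Cy3 (squares) on each of the 4 arrays (horizontal axis) for 8 probes; every panel spans 4 log2 units. For MMP7, MMP1, TIMP2, TIMP1 and ADAM19 A_23_P374082 the Cy5 values are nearly level over the arrays and the Cy3 values step between the clones, by 2.17 for MMP7 and -1.72 for ADAM19.

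The difference between the clones, tested directly, passed for 14 of the 100 probes. Relative to clone #4-7, clone #3-1 was higher in Cy5 for 6 (11% of all probes) and lower for 8 (11.5% of all probes), and among the 42 measured probes 5 were higher (against 16.3%) and 5 lower (against 16.7%). These shares are below those of all probes. The count of higher differences was 3 with the replicate number as a block, where no share over all probes is given. With 1 array left out, both counts were smaller than with all arrays. Among the 8 lower differences are those of MMP1 A_23_P1691 and ADAMTS16 A_23_P41629, which had no channel above background in clone #4-7. Apart from these, the probes whose difference passed under every alternative processing of the ratio of both channels were ADAM19 A_23_P374082, MMP7 and TIMP2 A_23_P107401.

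Channel by channel, the 42 measured probes differed between the clones' arrays by a median size of 0.062 in Cy5 and 0.14 in Cy3. The largest was 0.29 in Cy5 and 2.17 in Cy3. With limma on Cy3 alone 8 of the 100 probes passed (18.4% of all probes), namely ADAM8, ADAM19 A_23_P374082, ADAMTS16 A_23_P41629, MMP1 A_23_P1691, MMP7, TIMP1 and both TIMP2 probes. With limma on Cy5 alone 0 of the 100 passed (0.0927% of all probes), while 7 had an unadjusted p under 0.05, where no share over all probes is given.

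**Figure D4:**
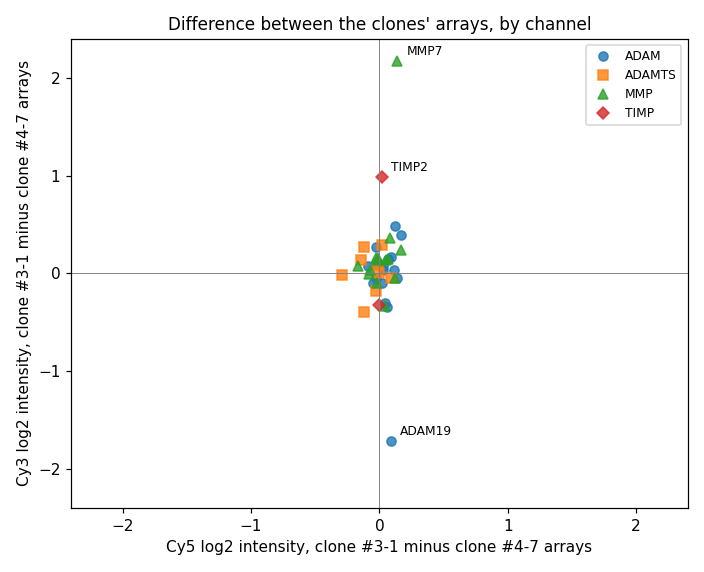
Difference between the mean log2 intensity of the clone #3-1 and the clone #4-7 arrays in Cy5 (horizontal axis) and in Cy3 (vertical axis) for the 42 measured probes, marked by subfamily, with equal scales. The points lie within 0.29 of 0 in Cy5 and reach from -1.72 (ADAM19) to 2.17 (MMP7) in Cy3.

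Proteases and inhibitors that act in the same pathways were read from lists of other genes. Their counts stand against 16.2% of all probes higher and 16.4% lower in clone #3-1, 16% and 15% in clone #4-7, and 11% and 11.5% for the difference. In the plasminogen activator system (8 genes, 11 probes) 2 probes were higher in Cy5 and 1 lower in clone #3-1, and 1 higher and 3 lower in clone #4-7, so that the shares lay between 9.09% and 27.3%. PLAU (urokinase), which activates plasminogen and thereby several pro-MMPs, read -1.17 and -1.16 in clone #3-1 (adjusted p = 1.6e-05) and 0.03 and 0.00 in clone #4-7 (adjusted p = 0.65), a difference of -1.18 (adjusted p = 6.8e-05). SERPINE2 (protease nexin 1), an inhibitor of urokinase and thrombin, had opposite signs, with 0.66 and 0.60 in clone #3-1 (adjusted p = 7.5e-05) and -1.04 and -1.08 in clone #4-7 (adjusted p = 2.8e-05).

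The membrane serine proteases and their inhibitors (10 genes, 12 probes) were mostly lower in Cy5: 8 lower and 2 higher in clone #3-1, and 6 lower and 2 higher in clone #4-7. The lower share was 66.7% and 50%, above the 16.4% and 15% of all probes, and the higher share was 16.7% in both, near the 16.2% and 16% of all probes. PRSS8 (prostasin) read -2.04 and -1.97 in clone #3-1 (adjusted p = 1.4e-05) and -0.45 and -0.33 in clone #4-7 (adjusted p = 0.00098). TMPRSS4 read -1.96 on both clone #3-1 arrays (adjusted p = 7.5e-06) and -0.24 and -0.27 in clone #4-7 (adjusted p = 0.001). ST14 (matriptase), which activates urokinase and pro-HGF, read -1.33 and -1.34 (adjusted p = 1.6e-05) and -0.69 and -0.77 (adjusted p = 6.7e-05), and the kallikrein KLK10 -1.03 and -0.98 (adjusted p = 2.8e-05) and -0.06 and -0.14 (adjusted p = 0.06). Each of these 4 was lower relative to clone #4-7 by the direct test, by -1.62, -1.70, -0.61 and -0.91 in the order given (adjusted p = 7.9e-05, 3.4e-05, 0.00052 and 0.00019). The median ratio of the 11 measured probes of this list was -0.81 in clone #3-1 and -0.26 in clone #4-7, against 0.01 and 0.02 over all measured probes.

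Cathepsins, cystatins and heparanase (12 genes, 17 probes) gave 4 higher and 6 lower in clone #3-1 (23.5% and 35.3%) and 1 higher and 5 lower in clone #4-7 (5.88% and 29.4%). CTSK (cathepsin K), a collagenolytic cysteine protease, read -1.10 and -1.03 (adjusted p = 2.1e-05) and -0.67 on both clone #4-7 arrays (adjusted p = 7.1e-05), and CSTA (cystatin A), an inhibitor of cysteine proteases, -0.39 and -0.45 (adjusted p = 9e-04) and -2.01 and -1.86 (adjusted p = 1.8e-05). Activators and inhibitors of metalloproteinases other than TIMPs (13 genes, 21 probes) gave 3 higher and 2 lower, and 3 higher and 4 lower, shares of 9.52% to 19%. The EGFR ligands that ADAMs shed (7 genes, 10 probes) gave 4 higher and 1 lower in clone #3-1 and 1 higher and 5 lower in clone #4-7, with 6 higher and 2 lower in the direct test of the difference (60% and 20%). Its higher share in clone #3-1 (40%) and lower share in clone #4-7 (50%) lay above those of all probes. The tetraspanins that escort ADAM10 (6 genes, 12 probes) gave 3 higher and 1 lower in clone #3-1 and 3 higher in clone #4-7 (25% higher in each). Other metzincins and ADAMTS-like genes (15 genes, 32 probes) gave 1 higher and 5 lower, and 1 higher and 2 lower, shares of 3.12% to 15.6% that lay below those of all probes. No probe of these last 4 lists reached 2-fold in either clone while past the threshold.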

How the data were processed

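The authors deposited the scanner intensity of every spot and its local background in both channels (Agilent Feature Extraction, 9.5.3.1 in the file header and 8.5.1.1 in the submitters' processing notes), with flags for signal above background, outliers and saturation (other values, 0 or 1), the software's processed intensity and log10 ratio, and a table of log10 ratios. All 43376 values per array of that deposited table lay within 0.005 of the scanner's log10 ratio for the same label. Coordinates are those of hg17 in the files.

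With R 4.3.3 and limma 3.58.1, mean intensities were background-corrected (normexp, offset 50), the 1639 control spots and 87 to 125 outlier spots an array left out, and log2 ratios normalized by loess within and quantiles between arrays. Spots of a probe were averaged, and a term for each clone was fitted over 4 arrays (eBayes); no sample was dropped or imputed. The labels and methods do not say whether the threshold, p under 0.001, was adjusted. A bound compares the brighter channel with the lowest signal above background or the dim channel's own, whichever is higher, after loess and Aquantile, is never set above the fitted ratio, and is open to dye bias. For ADAM7, ADAMTS16 and MMP1 in clone #3-1 the bound equals the fitted ratio and so allows for no error. The number of arrays limits the precision. The fit was run on simulated data with equal, independent noise at every probe, which holds neither dye bias nor variation of a control RNA.

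Named probes were the measured members past the threshold with at least 1.5-fold, the 5 largest clone differences in each direction, a fixed list of TIMP, MMP, ADAM and ADAMTS genes, members above background in 1 channel, other listed genes with at least 2-fold, CDH1 and VIM. Some smaller calls are also named, chosen after their values were seen. Members and lists were chosen with earlier results of these data known, and the channel comparison was added after the data were examined. RefSeq accessions matched 85 of the 100 probes, with 0 changes of symbol.

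Alternatives were the background correction, the processed signals, the deposited ratios, the normalization, a filter on dim probes, an intensity trend, the adjusted threshold, leaving out each array and a replicate block.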

Additional observations from a re-analysis of the deposited data

Results flagged for a closer look

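The test of the difference itself (limma, clone #3-1 minus clone #4-7, Cy5 over Cy3, 2 arrays a clone) separated the clones at 11 of the named probes that all arrays detected in 1 or both channels. The sizes on the log2 scale were -2.02 for MMP7, 1.81 and 0.49 for the ADAM19 probes A_23_P374082 and A_23_P81369, -0.97 for TIMP2 A_23_P107401 and 0.32 for TIMP1. For ADAM9 they were 0.40 (A_23_P72643) and 0.34 (A_32_P80678). The others were -0.39 for ADAMTS2 A_23_P213615, 0.37 for MMP25, -0.36 for ADAM8 and -0.30 for ADAM32. MMP7, ADAM19 A_23_P374082 and TIMP2 A_23_P107401 passed under every alternative processing of the ratio of both channels, and the other differences did not. On Cy5 alone none of these 3 passed, but that channel could hardly show a difference, as only 0.0927% of all probes passed there.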

How the results depend on the processing

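Of 49 named log2 ratios and clone differences past the threshold, 49 kept their direction under every alternative processing of the ratio of both channels and 21 also stayed past it. The clone differences of MMP1 A_23_P1691 and ADAMTS16 A_23_P41629 were left out, because neither probe had a channel above background in clone #4-7. The counts of members moved more, and under these alternatives no share over all probes is given beside them. In clone #3-1 (6 higher, 23 lower in Cy5), the lower count fell to 14 without a normexp offset, to 12 both with plain subtraction of background and with the processed signals, and to 14 with the deposited ratios. In clone #4-7 (6 higher, 11 lower) the lower count was 7 with an offset of 0. For the clone difference (6 higher, 8 lower) the counts were 2 and 4 with an offset of 0, 2 and 3 with plain subtraction, and 1 and 5 with processed signals. At an adjusted p under 0.05 the higher and lower counts were 12 and 35 in clone #3-1, 10 and 22 in clone #4-7, and 14 and 18 for the difference. With 1 array left out, which assumes that the lone array varies like the others, they ranged from 5 to 6 and from 14 to 19 in clone #3-1, from 3 to 7 and from 9 to 11 in clone #4-7, and from 1 to 2 and from 3 to 6 for the difference. The cause was not tested. With the replicate block the higher differences numbered 3, and the other counts were 6, 19, 6, 11 and 7; same-numbered arrays shared only a number (correlation of their deviations -0.01). On the Cy5 channel alone, an alternative added after the data were examined, both difference counts were 0, where only 0.0927% of all probes passed. The difference there was 0.02 for TIMP2 A_23_P107401, 0.14 for MMP7 and 0.12 for ADAM8, none past the threshold, each with the sign opposite to that of the ratio. On Cy3 alone, where 18.4% of all probes passed, the counts with the sign turned were 2 and 6. Dim probes, 44 of 100 with no signal above background, limit what these arrays can show.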
